A study of Mus musculus with 27 samples.

Results

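The response of the mouse brain to an infused α-IgLON5 autoantibody was compared between hippocampus and cortex of the same animal. The data were RNA-seq read counts from 26 libraries of the 13 mice that gave both tissues, out of 27 libraries and 14 mice in the series, and each mouse was identified by the number that opens its library title. Male C57Bl/6J wild-type mice aged 8 weeks received an infusion into the right lateral ventricle for 14 days at 0.25 μl/h. The infusion held α-IgLON5 autoantibody (IgLON5, 4 mice), phosphate-buffered saline (PBS, 5 mice) or a control human IgG (mIgG, 4 mice), and the 9 PBS and mIgG mice were pooled as controls. The labels call the control antibody a non-reactive human monoclonal IgG, and the study's text describes IgG from the serum of a healthy person. All mice, controls included, carried the pump and cannula, and tissue was taken from the hemisphere opposite to the cannula. The labels give neurons as the cell type, but whole tissue was lysed, and genes of microglia, astrocytes and oligodendrocytes were measured throughout.

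IgLON5 is a cell adhesion protein on the neuronal surface, and autoantibodies against it are found in patients with a sleep disorder and tau deposits. Plasma cells secrete antibody and join IgM through the J chain, microglia are the resident macrophages of the brain and carry the receptors and complement factors that react to bound antibody, and interferons switch on a shared set of antiviral genes in nearly every cell type. In bulk tissue, fewer cells of a type and less RNA per cell cannot be told apart.

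For each mouse and gene the hippocampal level was compared with the cortical level as a log2 difference of CPM, the reads of a gene scaled to the total of its library after TMM adjustment of that total, and this paired difference was compared between IgLON5 and control mice. A positive value means a larger antibody response in the hippocampus, and a negative value a larger response in the cortex. Of 20271 genes tested, 2 passed an adjusted p of 0.05 (edgeR quasi-likelihood test with animal as a block), which is 0.00987% of genes, and both had the larger response in the hippocampus. The called genes were the antibody heavy chain genes Ighm and Ighg2c, and the next smallest adjusted p was 0.602. Without the block no gene passed in edgeR (1101 at an unadjusted p under 0.05), and the values were 1.97 for Ighm and 2.83 for Ighg2c. With PBS mice alone as controls Ighg2c passed (3.57, adjusted p = 0.00842, edgeR), and with mIgG mice alone no gene did (2204 at an unadjusted p under 0.05), with values of 1.67 for Ighm and 2.39 for Ighg2c. With no filter on low counts, 40478 genes were tested, and 9 passed with the larger response in the hippocampus and 22 in the cortex. The 9 included Ighm, Ighg2c, Rnu12 (4.70) and Gm23240 (9.51), the last with any count in only 4 of 26 libraries. The added low-count genes changed the fit of all genes, so a pass in this setting alone is no support. At an unadjusted p under 0.05 there were 725 genes with the larger response in the hippocampus (3.58%) and 763 in the cortex (3.76%). The 95% interval of the difference had a median distance of 0.296 from the fitted value to either end on the log2 scale, before any adjustment for the number of genes.

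Several libraries stood apart from their groups. Library totals ran from 19428512 to 58550621 counts, and the hippocampi of IgLON5 mice 8 and 9 were the shallowest. The hippocampus of mouse 9 held 11.6% ribosomal RNA and 162 CPM of small nuclear RNA, and the cortex of mIgG mouse 37 held 4.18% and 97.5 CPM. The other 24 libraries held 0.0406 to 2.21% ribosomal RNA and 20.5 to 52.4 CPM of small nuclear RNA. A score of hippocampal minus cortical identity genes was -0.393 and 0.123 in the hippocampi of mIgG mice 37 and 10, against 1.1 to 2.39 in the other hippocampi and -2.46 to -1.92 in the cortices. The hippocampus of PBS mouse 74 held 3963 CPM of pituitary genes, and no other library more than 226 CPM. The CPM values of small nuclear RNA and pituitary genes are per library total, without TMM adjustment. The part of these libraries in the results was not tested. Ighm and Ighg2c were the 2 genes called with all 13 animals, without animals 10 and 37, and without animals 9 and 37.

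The heavy chain of IgM showed the difference in every IgLON5 animal. Ighm (chr12:113418558-113422730, minus strand, GRCm38) stood at 223, 34.1, 144 and 330 CPM in the hippocampi of IgLON5 mice 8, 9, 16 and 17 and at 159, 38.5, 88.8 and 117 CPM in their cortices. Control hippocampi held 6.81, 8.3 and 11.2 CPM (lowest, median and highest of 9), and control cortices 13.8, 17.4 and 24.5 CPM. All IgLON5 libraries thus lay above all control libraries in both tissues. Within animals the hippocampus minus cortex difference was 0.49, -0.18, 0.70 and 1.497 in the IgLON5 mice and -1.496 to -0.79 in the controls, with no overlap. The paired comparison gave a log2 value of 1.76 ± 0.204 (SE, adjusted p = 0.00333, edgeR), higher in 4 of 4 IgLON5 mice than in any control. Against pooled controls Ighm rose in the hippocampus by 4.42 ± 0.321 (log2, SE) and in the cortex by 2.45 ± 0.31.

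Ighg2c, the heavy chain of the IgG2c subclass (chr12:113285325-113288932, minus strand), differed from Ighm in its control levels. Its hippocampal values were 2.56, 1.69, 1.5 and 1.09 CPM in IgLON5 mice 8, 9, 16 and 17, and its cortical values 2.37, 3.11, 3.22 and 2.44 CPM. Control hippocampi held 0.0297, 0.181 and 0.619 CPM (lowest, median, highest), from 1 to 26 counts, and control cortices 1.61, 2.29 and 4.1 CPM, from 51 to 131 counts. The gene was therefore already present in control cortex at the level of the IgLON5 cortices, and the groups overlapped there. It rose by 2.92 ± 0.368 (log2, SE, adjusted p = 2.33e-06) in the hippocampus, while the cortical value was 0.09 ± 0.305 (adjusted p = 0.958). The paired comparison gave 2.88 ± 0.355 (adjusted p = 0.00378, edgeR).

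Both called genes had lower hippocampal than cortical levels in controls, so a log2 difference weighs a given addition of reads more in the hippocampus. On the CPM scale, chosen after the data were seen, Ighm in the IgLON5 mice lay 82 CPM higher in the hippocampus than in the cortex on average, and in controls 9.93 CPM lower. Relative to the control means Ighm stood 174 CPM higher in the hippocampus and 82.3 CPM higher in the cortex. For Ighg2c the mean CPM difference of hippocampus minus cortex was -1.07 in IgLON5 mice and -2.39 in controls.

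**Figure D1:**
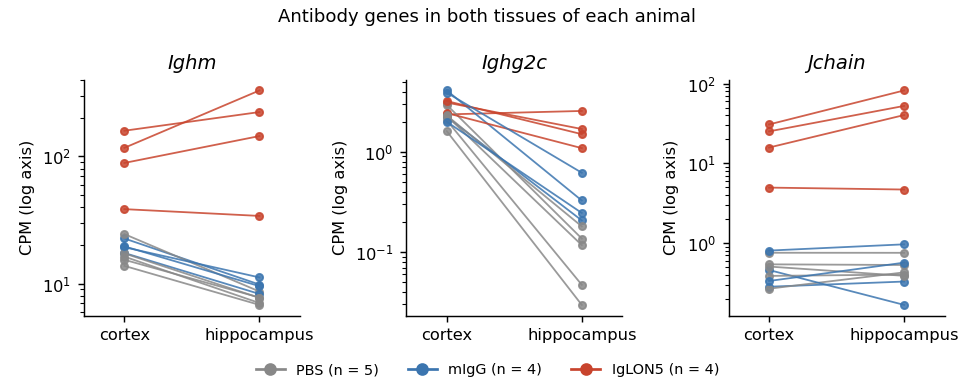
Levels of Ighm, Ighg2c and Jchain in CPM (log axis) in the cortex and hippocampus of each mouse, joined by a line, with PBS mice in grey, mIgG mice in blue and IgLON5 mice in red. The control lines for Ighm and Ighg2c fall from cortex to hippocampus, whereas Ighm is higher in the hippocampus in 3 of the 4 IgLON5 mice, and IgLON5 mouse 9 is the lowest red line for Ighm and Jchain.

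Among the antibody genes tested, none but Ighm and Ighg2c passed the paired test. Summed over the antibody genes, the hippocampi of mice 8, 9, 16 and 17 held 1562, 122, 624 and 1897 CPM and their cortices 523, 121, 299 and 1019 CPM. Control hippocampi held 7.81, 12.3 and 16.2 CPM and control cortices 17.0, 22.7 and 30.3 CPM (lowest, median, highest). The log2 ratio of the sums, hippocampus over cortex, was 1.58, 0.0054, 1.06 and 0.90 in IgLON5 mice 8, 9, 16 and 17 and -1.30 to -0.61 in controls, and without TMM adjustment that of mouse 9 was -0.22. Mouse 9 had the least antibody RNA of the IgLON5 mice in both tissues.

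Of 231 antibody genes with any count, 68 passed the filter on low counts, most of them through the IgLON5 libraries alone, so their count is no support. Among these, 55 had a positive and 13 a negative paired value (median 0.99, against 0.00772 over all genes tested), and 2 were called. Igkc, the kappa light chain constant region, stood at 359, 31.2, 117 and 364 CPM in the hippocampi of mice 8, 9, 16 and 17 and at 107, 31.7, 60.8 and 201 CPM in their cortices. Its paired value was 0.22 ± 0.446 (adjusted p = 0.924, edgeR), with 0.167 to 2.48 CPM in control hippocampi, and it was -0.072 without mouse 8 and 0.48 without mouse 9. Ighg2b, the IgG2b heavy chain, reached 432 CPM in the hippocampus and 285 CPM in the cortex of mouse 17, and its paired value was 0.88 ± 0.91. Ighg1, the IgG1 heavy chain, had a paired value of 0.68 ± 0.932. Without mouse 8 the paired values were 0.37 for Ighg2b and 0.29 for Ighg1, without mIgG mouse 15 that of Ighg2b was 1.23, and without mouse 9 that of Ighg1 was 1.05. With PBS mice alone as controls the value of Ighg1 was -1.67. Igkc, Ighg2b and Ighg1 were named after their values were seen.

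Variable genes differed between animals. Igkv1-110 held 15.8, 1.52, 7.46 and 43.3 CPM in the hippocampi and 4.95, 1.19, 3.65 and 6.01 CPM in the cortices of mice 8, 9, 16 and 17, and was at 0 counts in every control cortex. Its paired value was 0.10 (adjusted p = 0.903, edgeR). It turned negative in 9 of the 13 fits that left out 1 animal and was 1.65 without PBS mouse 14, and with controls at or near 0 the fitted values of such genes depend on the prior count. Ighv1-53 and Igkv5-43, at 0 to 1 and 0 to 6 counts in the control libraries, had paired values of 3.02 ± 1.21 and 2.51 ± 1.06, neither of which passed (adjusted p = 0.667 for each, edgeR), and without mIgG mouse 15 the value of Igkv5-43 was 3.96. Over all genes, the differences of the 4 IgLON5 mice lay above those of all 9 controls for 58 (0.286%) and below for 34 (0.168%), and since part of the genes named here were picked for such a separation, nothing is read from it for them. Ighv1-76 was at 0 counts in all 18 control libraries and at 52, 1, 13 and 929 counts in the hippocampi and 5, 0, 1 and 138 in the cortices of mice 8, 9, 16 and 17, so no fitted difference is given.

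Genes of antibody-secreting cells did not pass the paired test. Jchain, the joining chain of IgM and IgA, stood at 52.5, 4.68, 40.3 and 82 CPM in the hippocampi of mice 8, 9, 16 and 17 and at 25.1, 4.95, 15.8 and 30.7 CPM in their cortices. Controls held at most 0.96 CPM in either tissue. Jchain rose by 6.48 ± 0.461 in the hippocampus and 5.30 ± 0.47 in the cortex (log2, SE), and its paired value was 0.97 ± 0.293 (adjusted p = 0.655, edgeR). Irf4, a transcription factor of plasma cells named after its values were seen, stood at 4.39, 0.677, 1.63 and 2.41 CPM in the hippocampi and 2.01, 0.47, 1.07 and 1.13 CPM in the cortices of the same mice, and its paired value of 1.32 ± 0.257 had the smallest adjusted p after the called genes (0.602, edgeR). In the plasma cell list 8 of 9 tested members had positive paired values (median 0.38), which was 6 of 9 (median 0.14) with limma, 6 of 9 without PBS mouse 14 and 5 of 8 with mIgG mice alone as controls. The list mean of IgLON5 mouse 9 (-0.47) lay within the control range of -0.51 to 0.19.

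The genes that differed from controls within each tissue were counted next. Against pooled controls 871 genes were higher (4.3% of genes tested) and 241 lower (1.19%) in the hippocampus, and 736 were higher (3.63%) and 32 lower (0.158%) in the cortex. Of 1004 genes higher in either tissue, 603 were higher in both, and for 378 of them the 95% interval of the paired difference lay within -1 to 1 on the log2 scale. The median paired value of the 603 genes was 0.0994, and 48 differed by more than 1. At an unadjusted p under 0.05, 77 of the 603 had the larger response in the hippocampus and 17 in the cortex, and of the 1004 genes 183 and 57, against 725 and 763 of all genes. Both tissue comparisons used the same animals, and these genes were chosen on values that enter the paired difference, so the counts are a description. The number of lower genes rested on few libraries, since without animals 9 and 37 there were 18 in the hippocampus and 12 in the cortex. Leaving out 1 animal moved it both ways, to 35 to 702 in the hippocampus and 7 to 84 in the cortex.

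**Figure D2:**
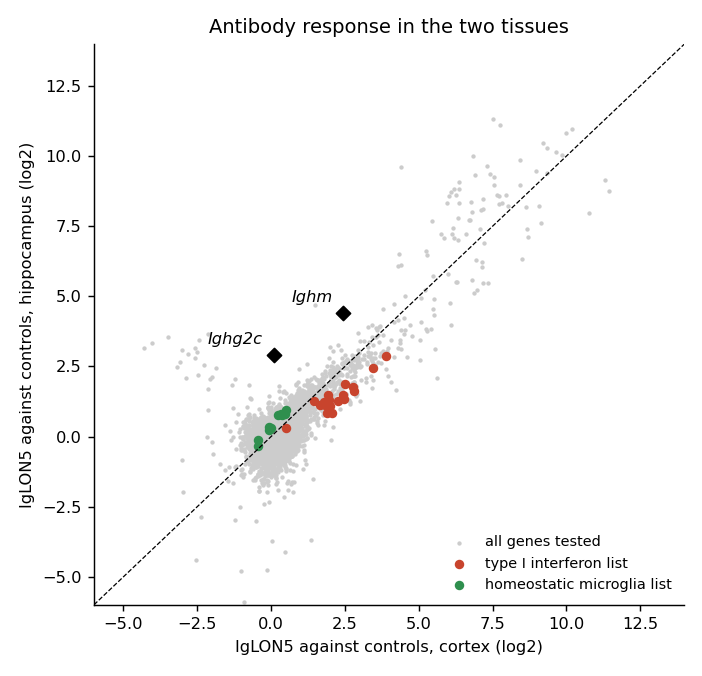
Log2 difference of IgLON5 from control mice in the cortex (horizontal) and in the hippocampus (vertical) for each gene tested, with the line of equal response dashed, and 1 gene outside the plotted range. Ighm and Ighg2c lie above the line, the type I interferon genes (red) below it and the homeostatic microglia genes (green) above it.

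Genes induced by type I interferon had the larger cortical values on the log2 scale. In controls the median hippocampus minus cortex difference of the list was 0.507. For genes higher in the control hippocampus, a log2 difference weighs a given addition of reads more in the cortex. All 18 members of the list had negative paired values, with a median of -0.78 against 0.00772 over all genes tested, and 10 of 18 reached an unadjusted p under 0.05, against the 3.76% of all genes given above. None passed after adjustment, and with no filter on low counts Ifit1 did (adjusted p = 0.0137, edgeR). Against controls 17 of the 18 rose in the cortex and 7 in the hippocampus, against 3.63% and 4.3% of all genes. The 18 members were negative in every alternative that kept all of them, including the fits without animals 10 and 37 (median -0.81) and without animals 9 and 37 (median -0.64, 7 at an unadjusted p under 0.05). The number at an unadjusted p under 0.05 was 1 without the replicate block, with or without the unpaired library, and 5 with PBS mice alone as controls. It was 6 without IgLON5 mouse 9 and 16 without IgLON5 mouse 16. The list mean, hippocampus minus cortex, was -0.19, -0.62 and -0.44 in IgLON5 mice 8, 9 and 17 and 0.69 in mouse 16, which lay within the control range of -0.068 to 0.98.

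The short stretches printed here show the motif GAAA, any 2 bases, GAAA that interferon-activated factors of the IRF and STAT families bind, in capitals, from the 250 bases before the start site of 3 genes of that list (Ifit1, Isg15, Rsad2), 1 chemokine (Cxcl10) and 2 interferon-induced GTPases (Gbp2, Igtp), taken from RefSeq on GRCm38.p6 and read 5′ to 3′ along each gene.
Ifit1, chr19:34640794-34640823, plus strand: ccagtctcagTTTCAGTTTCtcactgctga
Isg15, chr4:156200865-156200894, minus strand: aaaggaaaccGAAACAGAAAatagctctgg
Rsad2, chr12:26456553-26456582, minus strand: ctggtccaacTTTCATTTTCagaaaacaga
Cxcl10, chr5:92349083-92349112, minus strand: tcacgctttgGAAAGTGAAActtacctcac
Gbp2, chr3:142620594-142620623, plus strand: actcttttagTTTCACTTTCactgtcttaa
Igtp, chr11:58199512-58199541, plus strand: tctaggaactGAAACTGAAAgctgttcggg
Both strands were searched, and TTTC, any 2 bases, TTTC is the same motif on the other strand. It was found in 7 of the 11 type I interferon genes with a window in the table and in 9 of 10 interferon-induced GTPases, against 3.46% of all 27025 genes. None of 6 homeostatic microglia genes with a window held it, which says only that these letters are not in this window. It was found in 2 of 10 lysosome genes, 1 of 11 disease-associated microglia genes and none of 7 complement genes with a window.

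Ifit1, an antiviral RNA-binding protein, stood at 22.3, 5.24, 4.36 and 5.51 CPM in the hippocampi of IgLON5 mice 8, 9, 16 and 17 and at 23.7, 10.3, 3.05 and 7.56 CPM in their cortices. Control hippocampi held 2.12, 4.1 and 14.4 CPM and control cortices 1.76, 2.38 and 7.29 CPM (lowest, median, highest). In controls the hippocampus was the higher tissue in each animal, whereas in 3 of 4 IgLON5 mice the cortex was, and mouse 16 lay among the controls. The paired value was -0.94 ± 0.259 (adjusted p = 0.655, edgeR). Ifit1 rose in the cortex (1.91 ± 0.489, adjusted p = 0.0187) and had a value of 0.85 ± 0.498 in the hippocampus (adjusted p = 0.389).

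Isg15, a ubiquitin-like modifier, had a paired value of -0.72 ± 0.245 and rose in the cortex by 2.27 ± 0.434 (log2, SE). Mx1, a dynamin-like antiviral GTPase, had a paired value of -1.08 ± 0.545, which was -0.63 without mouse 17 and -1.35 without mouse 16, and rose in both tissues, by 2.87 in the hippocampus and 3.88 in the cortex. Irf7, the transcription factor that amplifies interferon production, had a paired value of -0.38 ± 0.319, which was -0.14 without mouse 9 and -0.73 without mouse 16, and also rose in both tissues. Ifit1, Isg15 and Irf7 were named after their values were seen.

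Interferon-induced GTPases gave 14 of 14 negative paired values (median -0.38), and 6 reached an unadjusted p under 0.05, against 3.76% of all genes. Without the replicate block 1 of 14 reached that level. Against controls 13 rose in the cortex and 6 in the hippocampus, against 3.63% and 4.3% of all genes. In controls the median hippocampus minus cortex difference of the list was 0.26. The list mean of mouse 16 (0.27) lay within the control range of -0.16 to 0.63. Iigp1, which acts on the vacuoles of intracellular pathogens, stood at 19.2, 5.53, 3.07 and 5.31 CPM in the hippocampi and 23.5, 11.1, 2.53 and 5.76 CPM in the cortices of mice 8, 9, 16 and 17. Its controls held 1.67 to 7.57 CPM in the hippocampus and 0.972 to 2.8 CPM in the cortex. The paired value was -1.25 ± 0.302 (adjusted p = 0.655, edgeR), and 3 of 4 IgLON5 mice lay below all controls. Iigp1 was named for the largest difference in its list. The share of all genes with such a separation was not counted, so nothing is read from it. With no filter on low counts Iigp1 passed (adjusted p = 0.00107, edgeR). Nlrc5, which drives genes of antigen presentation by MHC class I, had a paired value of -0.51 ± 0.299, which was -0.83 without mouse 16.

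Chemokines varied between animals. Cxcl10, an interferon-induced attractant of T cells, stood at 86.6, 4.45, 1.56 and 1.29 CPM in the hippocampi and 88.2, 10.7, 0.405 and 7.77 CPM in the cortices of mice 8, 9, 16 and 17, with at most 1.49 CPM in controls. It rose in both tissues, and its paired value was -2.21 ± 0.663 (adjusted p = 0.655, edgeR). Mouse 16 went the other way from mice 9 and 17. With no filter on low counts Cxcl10 passed (adjusted p = 0.00242, edgeR). Ccl5, another attractant of T cells, had a paired value of -1.66 ± 0.56. In the CC chemokine list 2 of 10 tested members were positive and 8 negative (median -0.51), which was 1 of 10 positive (median -0.87) without mouse 16 and 3 of 10 (median -0.30) without mouse 8 or without mouse 9. In the CXC chemokine list, which holds Cxcl10 and Cxcl13, 5 of 8 were positive and 3 negative (median 0.082), and without mouse 16 it was 3 of 8 (median -0.18). Cxcl13, the attractant of B cells, rose by 8.48 in the hippocampus and 7.18 in the cortex on the log2 scale, with a paired value of 1.42 ± 1.3, which was 0.99 without mouse 16 and 2.79 without mIgG mouse 15.

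**Figure D3:**
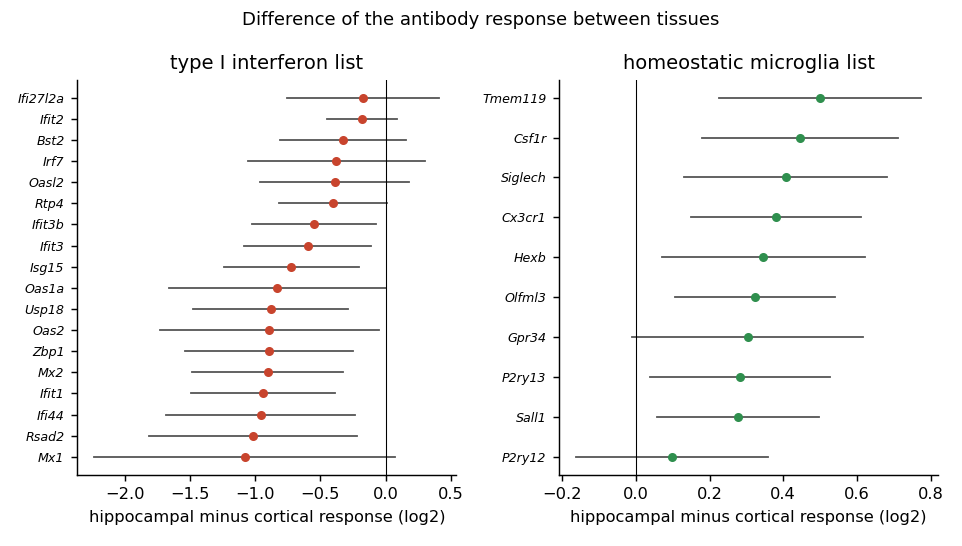
Difference of the IgLON5 response between tissues for each gene of 2 lists, on the log2 scale, as the fitted value with its 95% interval, where values below 0 mean a larger response in the cortex. All 18 type I interferon genes lie below 0 and all 10 homeostatic microglia genes above it, and none passed the adjusted threshold.

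Microglial genes had the opposite sign. All 10 members of the homeostatic microglia list had positive paired values (median 0.33), and 8 of 10 reached an unadjusted p under 0.05, against 3.58% of all genes. Against controls 5 rose in the hippocampus and 3 in the cortex, against 4.3% and 3.63% of all genes. The list medians were 0.55 and 0.13. These values leaned on IgLON5 mouse 9, whose hippocampal library held the most ribosomal RNA and whose list difference was the highest (0.645, against 0.0729 to 0.279 in the other IgLON5 mice and -0.233 to 0.168 in controls). Without mouse 9, 9 of 10 were positive (median 0.22) and 3 reached an unadjusted p under 0.05. With mIgG mice alone as controls 5 did, and with animals 8 to 17 alone 1 did, with 10 of 10 positive in both. The part of RNA quality in these values was not tested.

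Trem2, a lipid receptor of activated microglia, stood at 14.8, 28.5, 23.5 and 20.7 CPM in the hippocampi of mice 8, 9, 16 and 17 and at 13.2, 12.5, 15.1 and 15.9 CPM in their cortices. Control hippocampi held 8.85, 10.8 and 11.8 CPM and control cortices 9.35, 11.2 and 12.6 CPM (lowest, median, highest). The IgLON5 hippocampi lay above all controls, and the lowest IgLON5 cortex lay among them. Trem2 rose in the hippocampus by 1.06 ± 0.115 (log2, SE), had a cortical value of 0.35 ± 0.118 (adjusted p = 0.138), and a paired value of 0.69 ± 0.146 (adjusted p = 0.64, edgeR). With no filter on low counts Trem2 passed (adjusted p = 0.0228, edgeR).

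C1qc, a chain of the first complement component, stood at 90.7, 169, 122 and 88 CPM in the hippocampi and 80.3, 112, 78.1 and 81.8 CPM in the cortices of the same mice. Controls held 31.5 to 45 CPM in the hippocampus and 37.9 to 51.8 CPM in the cortex. C1qc rose in both tissues, by 1.60 ± 0.123 and 1.05 ± 0.124 (log2, SE), and its paired value was 0.52 ± 0.108 (adjusted p = 0.624, edgeR, and 0.0228 with no filter on low counts). C1qa, its partner chain, had a paired value of 0.37 ± 0.121, which was 0.22 without mouse 9. In the complement list 11 of 13 tested members were positive (median 0.18), and without IgLON5 mouse 16 it was 7 of 13 (median 0.0208). C3, the central complement protein, rose by 5.71 in the hippocampus and 5.48 in the cortex, and its paired value was 0.38 ± 0.371, or 0.17 without IgLON5 mouse 16 and 0.60 without PBS mouse 74.

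**Figure D4:**
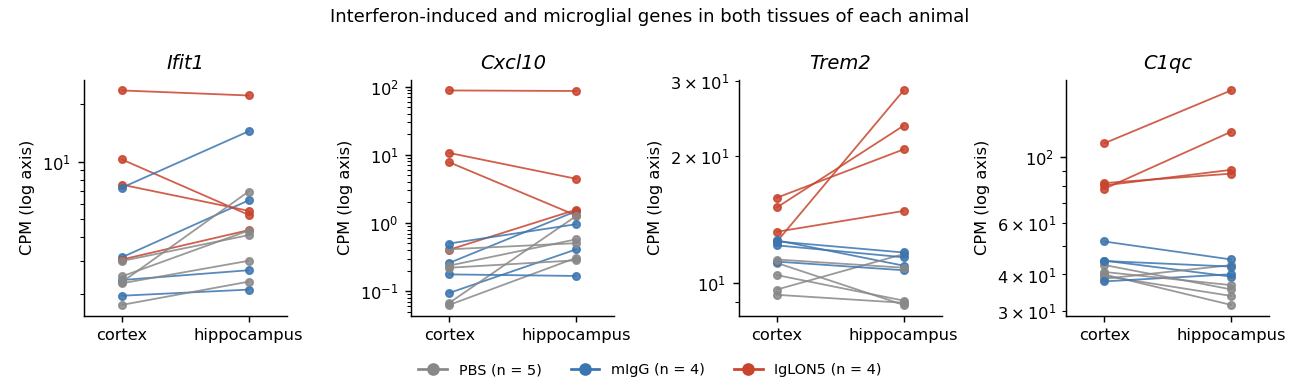
Levels of Ifit1, Cxcl10, Trem2 and C1qc in CPM (log axis) in the cortex and hippocampus of each mouse, joined by a line, with PBS mice in grey, mIgG mice in blue and IgLON5 mice in red. The red lines for Trem2 and C1qc rise towards the hippocampus in all 4 mice, and those for Ifit1 fall in 3 of 4.

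Other myeloid genes had values of either sign, none of which passed. In the neutrophil and monocyte list 4 of 11 tested members were positive and 7 negative (median -0.32), and in the border macrophage list 2 of 9 were positive and 7 negative (median -0.029). Tmem119, a surface protein of resident microglia, rose in the hippocampus (0.77 ± 0.145, log2) and had a paired value of 0.50 ± 0.129. Fcgr3, an activating receptor for IgG, rose in both tissues and had a paired value of 0.46 ± 0.116. Cd68, a lysosomal protein of phagocytes, had a paired value of 0.37 ± 0.105. Tlr9, an endosomal sensor of DNA, had a paired value of 0.66 ± 0.173. In the lysosome list 10 of 12 members were positive (median 0.22). At an unadjusted p under 0.05 there were 8, against 3.58% of all genes, and 2 without mouse 9. In the list of disease-associated microglia 12 of 14 were positive (median 0.18), with 5 at that level against the same share, and 3 without mouse 9. Outside these lists, Arhgap45 and Def6, regulators of small GTPases in blood cells, had paired values of 0.52 ± 0.106 and 0.76 ± 0.2, and Abcc3, a transporter, 0.60 ± 0.169. Without mouse 9 the paired values were 0.33 for Tmem119, 0.30 for Fcgr3, 0.23 for Cd68 and 0.38 for Abcc3.

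Pan-myeloid genes with large responses in both tissues gave values that varied with the animal. Adgre1, the macrophage marker F4/80, stood at 30.5, 64.6, 51.6 and 24.5 CPM in the hippocampi and 44.2, 62.8, 17.3 and 25.8 CPM in the cortices of mice 8, 9, 16 and 17. The paired difference was 1.57 in mouse 16 and -0.54 to 0.04 in the other 3, and the fitted value was 0.45 ± 0.27 (adjusted p = 0.722, edgeR). Cd72, a receptor of B cells and activated microglia, had a value of 0.59 ± 0.528, with differences of 2.54 in mouse 16 and -0.82 to -0.12 in the others. Aif1, a cytoskeletal protein of microglia also called Iba1, had a value of 0.30 ± 0.22. Without mouse 16 the fitted values were 0.029 for Adgre1 and 0.0054 for Aif1, and without mouse 8 they were 0.72 and 0.46.

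**Figure D5:**
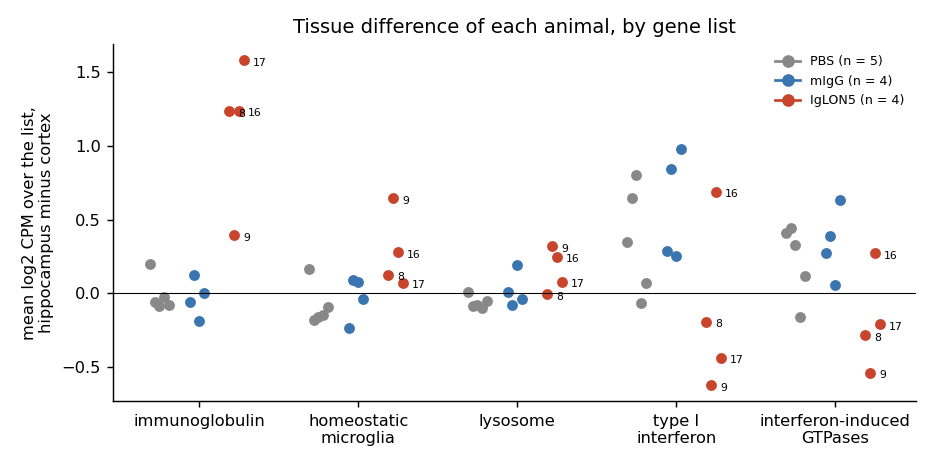
Mean log2 CPM over each gene list, hippocampus minus cortex, for every mouse, with PBS mice in grey, mIgG mice in blue and IgLON5 mice in red with their numbers. The antibody genes shown are those that passed the filter, most of them through the IgLON5 libraries, with control values held near 0 by low counts, so their separation is no result. Mouse 16 lies among the controls for both interferon lists and mouse 9 is the highest for the microglia list.

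Astrocyte, cytokine and neuronal genes did not pass the paired test. Gfap, the intermediate filament of reactive astrocytes, rose by 1.34 ± 0.204 in the hippocampus and 1.38 ± 0.204 in the cortex (log2, SE), and its paired value was 0.06 with a 95% interval of -0.40 to 0.51. Steap4, a metalloreductase of reactive astrocytes, had a value of 0.73 ± 0.303. Tnf and Il1b, inflammatory cytokines, rose in both tissues and had values of -0.96 ± 0.833 and 0.40 ± 0.364. Leaving out 1 animal gave -1.33 to -0.57 for Tnf, and for Il1b 0.015 without mouse 16 and 0.76 without mouse 8. Il6 was under the filter, with at most 19 counts in IgLON5 hippocampi, 76 in IgLON5 cortices and 6 in controls. H2-Ab1, an MHC class II chain, had a value of -0.20 ± 0.279.

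Iglon5, the gene of the antibody's target, stood at 29.4, 30.5, 27.2 and 26.5 CPM in the hippocampi and 27.4, 28.2, 35.8 and 29.8 CPM in the cortices of the 4 IgLON5 mice, within the control ranges of 25 to 30.6 and 27 to 37.8 CPM. Its paired value was 0.04 with an interval of -0.18 to 0.26. Mapt, which encodes tau, had a value of 0.04 with an interval of -0.11 to 0.19, and 0.0020 without PBS mouse 14. Negr1, another member of the IgLON family, had a value of -0.14 ± 0.101, which was -0.080 without mouse 9 and -0.21 without mouse 17, and Camk2b, a synaptic kinase, 0.29 ± 0.14. Tac1, the precursor of substance P, fell in the hippocampus (-0.47 ± 0.125, adjusted p = 0.021) and had a paired value of -0.59 ± 0.168. Il13ra2, a decoy receptor for interleukin 13, had a paired value of -1.06 ± 0.291, with differences of -0.80 to 0.95 in IgLON5 mice and 1.09 to 2.03 in controls.

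In controls 7717 genes (38.1%) differed between hippocampus and cortex, 3897 higher and 3820 lower in the hippocampus.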

How the data were processed

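RNA was sequenced from cortex and hippocampus with stranded mRNA libraries. The authors aligned reads to GRCm38 with STAR and deposited raw counts per gene and library; the counting program, annotation release and strand setting are not given in the sources used here. A gene entered the tests when 4 or more of the 26 libraries held 10 or more reads for it, which left 20271 of 55487, and 55141 identifiers matched a symbol of GENCODE M21. The paired comparison used edgeR 4.0.16 in R 4.3.3 (TMM, glmQLFit, glmQLFTest, animal as a block, tissue, and tissue by IgLON5), with Benjamini-Hochberg adjustment. Effects within a tissue came from a fit of 4 groups without the block, since treatment lies between animals. Log2 CPM used a prior count of 1. Values marked ± are standard errors, taken as the size of the fitted value over the square root of its F statistic. For genes with few or no counts in controls they are no reliable measure of precision. DESeq2 1.42.0 and limma 3.58.1 served as alternatives.

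The numbers pair the libraries because both tissues came from 1 animal. Deviations from group means correlated at -0.0601 to 0.443 (median 0.193) between tissues of an animal. No 2 libraries of a group repeated each other (over 44 pairs the chi-square divided by its degrees of freedom was 4.54 or more). Tested on simulated data of this comparison over 20271 genes, 83% of genes changed 2-fold (1 on the log2 scale) and 95% of those changed by 2 on the log2 scale were recovered, with 14 false calls. The changed genes, 100 of each size, were drawn only from genes above a minimum mean count. So many planted changes make the adjusted threshold easier to reach than in the data. These shares therefore do not say how many differences of such size were missed.

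Named genes were up to 12 called genes a direction, the 8 largest differences a direction with no overlap of the animals, an unadjusted p under 0.05 and a mean of at least 1 CPM, 14 fixed genes, and for each of 42 lists its called members and its member with the largest difference. Members and lists were chosen with earlier results of these data known. Lists were described and not tested. The unpaired mIgG cortex of animal 11 entered only 1 alternative. Each mouse is 1 replicate, and the number of mice limits the precision.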

Additional observations from a re-analysis of the deposited data

Results flagged for a closer look

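The antibody response differed between tissues by the test of the difference itself for Ighm (1.76 on the log2 scale) and Ighg2c (2.88). Neither gene passed without the replicate block or with mIgG mice alone as controls. Dixon's test of the highest and lowest animal was run on the hippocampus minus cortex differences of 44 genes and 13 lists, in 114 groups of animals, and 10 passed; chance alone gives about 1 in 20. In IgLON5 mouse 9 the difference of Abcc3 was 0.956 (nearest other 0.156), and the mean of the plasma cell list was -0.465 (nearest 0.371). In IgLON5 mouse 16 the difference of Isg15 was 0.697 (nearest -0.369), and that of the CC chemokine list was 1.61 (nearest -0.56). In PBS mouse 14 the differences were 2.25 for Ighg1, 1.80 for Igkv1-110 and 0.279 for Trem2. In mIgG mouse 37 they were 2.03 for Il13ra2 and 0.196 for the lysosome list, and in PBS mouse 74 the mean of the pituitary list was 5.16 (nearest 1.15).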

How the results depend on the processing

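Ighm and Ighg2c passed with DESeq2, limma, other size factors and a composition covariate, and without any 1 animal, animals 10 and 37, or animals 9 and 37; the alternatives that left out 2 animals and the CPM scale were chosen after the data were seen. The number of genes with the larger response in the hippocampus was 0 without the replicate block, with all 27 libraries unpaired, with mIgG mice alone and with animals 8 to 17. It was 1 with at least 10 counts in every library, a filter that Ighg2c did not pass, and 1 with PBS mice alone. With no count filter it was 9, and 22 genes had the larger response in the cortex. Of these, 8 and 22 were among the 20271 genes. Leaving out 1 animal gave 2 to 2 and 0 to 2 genes. The cause of the other changes was not tested.

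Without the replicate block the adjusted p was 0.896 for Ighm (1.97) and 0.0856 for Ighg2c (2.83), and with all 27 libraries 0.734 (2.01) and 0.0583 (2.92). With mIgG mice alone Ighm had 1.67 (0.267) and Ighg2c 2.39 (0.108), with animals 8 to 17 1.89 (0.418) and 2.95 (0.245), and with PBS mice alone Ighm had 1.82 (0.0722).

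Genes lower in the hippocampus numbered 432 with DESeq2, 55 in a fit of that tissue alone, 157 without animals 10 and 37, 18 without animals 9 and 37, and 35 to 702 without 1 animal. In the cortex these were 66, 17, 12 without animals 9 and 37, and 7 to 84. Genes higher numbered 642 to 1015 in the hippocampus and 462 to 799 in the cortex without 1 animal.

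Among uncalled genes the sign turned for Gfap (-0.038 without the block, -0.081 with 27 libraries, -0.17 with animals 8 to 17, -0.036 with the covariate, -0.11 without animals 9 and 37), H2-Ab1 (0.091 with the covariate, 0.13 without animals 9 and 37), Ighg1 (-1.67 with PBS mice alone), Igkv1-110 (-0.51 with PBS mice alone, -1.06 with animals 8 to 17, -0.59 with the covariate, -0.13 without animals 10 and 37), Iglon5 (-0.0096 with no filter, -0.027 without animals 9 and 37), Il1b (-0.15 without the block, -0.075 with 27 libraries) and Mapt (-0.010 with no filter). Without 1 animal the ranges were -0.085 to 0.99 for Cd72, -0.13 to 0.29 for Gfap, -0.51 to 0.058 for H2-Ab1, -0.072 to 0.48 for Igkc, -0.41 to 1.65 for Igkv1-110 and -0.038 to 0.15 for Iglon5. Of 1169 combinations of gene and alternative, 1120 kept direction and side of the threshold.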

Other observations

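The antibody variable genes of an IgLON5 mouse were compared between its tissues, a description chosen after the data were seen. Over 132 variable genes, the usage shared by the hippocampus and cortex of 1 mouse was 37.6 to 75.4% (4 mice), and that shared by the hippocampus of 1 mouse and the cortex of another was 19.2 to 49.2% (12 pairs). The hippocampus of mouse 17 shared 40.1% with the cortex of mouse 16 and 37.6% with its own cortex. Mouse 9 had the fewest variable counts, 416 in the hippocampus and 568 in the cortex. In mouse 16 Ighv1-22 led in both tissues, with 8.75% of variable counts in the hippocampus and 11.8% in the cortex. In mouse 17 Igkv6-23 took 41.7% of variable counts in the cortex and 4.03% in the hippocampus.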
